A study of Mus musculus with 24 samples.

Results

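The genes described here are 10 that copy DNA or make its building blocks: Mcm2, Mcm3, Mcm4, Mcm5, Mcm6, Mcm7, Pcna, Rrm1, Rrm2 and Tyms. They were chosen by name, and each is carried by every non-control probe whose accession belongs to it, which came to 1 probe with 1 spot for each gene. They are 10 of the 21368 genes that could be named on a 1-colour Agilent mouse array, which measures RNA abundance by the brightness of labelled cRNA on a spot. Liver, brain, heart and skeletal muscle were taken from the same 6 male mice, giving 24 arrays and 3 mice of each genotype per tissue. The 3 WT mice carry wild-type Rap1 (Terf2ip, a protein of the telomere complex that also acts away from telomeres), and the 3 Rap1 KI/KI mice are homozygous for the I312R allele made with CRISPR/Cas9 and backcrossed 4 times to C57BL/6N (C57BL6 in the labels). In each genotype mouse 1 (WT1, KI1) was 5 months old and mice 2 and 3 were 2 months old.

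All 10 genes belong to the machinery of S phase. Mcm2 to Mcm7 encode the subunits of the ring-shaped helicase that is loaded on replication origins before S phase and unwinds DNA at the fork. Pcna encodes the sliding clamp that holds the replicative polymerases on the template and also serves in repair. Rrm1 and Rrm2 encode the large and the small subunit of ribonucleotide reductase, which turns ribonucleotides into deoxyribonucleotides, and Tyms encodes thymidylate synthase, which makes dTMP. Adult liver, brain, heart and muscle are largely made of cells that do not divide, and several of these genes are classical targets of E2F factors, whose transcripts peak around the start of S phase.

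The promoters are shown because the genes are often treated as 1 co-regulated set, while their levels below followed several different orders over the tissues. RefSeq promoters of GRCm38.p6, running from 250 bases before to 50 bases after the start, were listed for 9 of the 10 genes, and Mcm4 had no entry. Words of the E2F type (the word TTTCCCG, its variant with TTTCGCG, the related word TTTGGCG and its variant with TTTGCCG, on either strand) were found in 4 of the 9 genes, Mcm3, Mcm5, Mcm6 and Mcm7. They were found in 7.6% of 27025 genes and in 6.7% of their 32851 promoters of that length. The word CCAAT was found on either strand in 8 of the 9 genes, in 41.1% of genes and in 37.4% of promoters. GGGCGG was found in 7 of the 9, in 38.2% of genes and in 35.7% of promoters. TTTGAA was found only in Mcm2 among the 9 genes, in 20.2% of genes and in 17.9% of promoters. The 180 bases before the start are given below 5′ to 3′ on the strand of the gene for Mcm5 (chr8:75109329-75109508, plus strand), Mcm6 (chr1:128359706-128359885, minus strand), the further upstream of the starts listed for Mcm7 (chr5:138171884-138172063, minus strand), Rrm1 (chr7:102441515-102441694, plus strand) and Rrm2 (chr12:24708074-24708253, plus strand). Capitals mark the E2F-type and CCAAT words on either strand, and in Mcm5 and Mcm6 a pair of E2F-type words on opposite strands overlaps.
Mcm5: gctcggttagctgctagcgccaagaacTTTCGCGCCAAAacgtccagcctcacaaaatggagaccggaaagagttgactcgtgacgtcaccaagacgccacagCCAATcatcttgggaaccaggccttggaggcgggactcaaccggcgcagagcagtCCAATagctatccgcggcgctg
Mcm6: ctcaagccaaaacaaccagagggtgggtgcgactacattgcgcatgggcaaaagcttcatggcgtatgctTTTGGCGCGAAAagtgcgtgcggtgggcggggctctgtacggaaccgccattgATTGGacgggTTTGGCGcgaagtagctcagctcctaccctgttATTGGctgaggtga
Mcm7: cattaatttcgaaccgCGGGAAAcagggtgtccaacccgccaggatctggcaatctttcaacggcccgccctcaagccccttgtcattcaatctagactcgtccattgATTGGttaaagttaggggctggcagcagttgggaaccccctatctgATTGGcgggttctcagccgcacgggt
Rrm1: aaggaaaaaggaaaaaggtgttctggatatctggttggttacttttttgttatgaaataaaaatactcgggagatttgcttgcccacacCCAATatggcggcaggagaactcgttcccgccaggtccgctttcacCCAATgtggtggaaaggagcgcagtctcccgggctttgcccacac
Rrm2: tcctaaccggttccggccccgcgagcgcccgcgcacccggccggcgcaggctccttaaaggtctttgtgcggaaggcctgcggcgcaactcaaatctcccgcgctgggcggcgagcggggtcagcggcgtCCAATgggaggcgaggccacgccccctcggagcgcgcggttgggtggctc

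Mcm5 and Mcm6 held E2F-type words at positions -153 to -142 and -110 to -99 from their starts, and Mcm6 held another at -47 to -41. The printed Mcm7 window held 1 at -164 to -158, while the window of its other start held none. None was found before or just after the starts of Rrm1, Rrm2, Pcna, Tyms and Mcm2. A match of letters is a description of the sequence and not of a bound site.

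Every one of the 10 probes was well above background on all 24 arrays, and none was saturated. The level of a probe is its log2 processed signal minus the log2 75th percentile of its array, so that 0 is the brightness of the 75th percentile and 1 unit is a doubling. The 75th percentile lay between 471 and 1389 intensity units, and 57.6% to 73.5% of probes were well above background on an array. Lists of 5 genes each for liver, brain, heart and muscle had mean levels of 4.36 to 9.36 in the tissue they mark and of at most 1.99 in the others. The highest of these others was the brain list in the muscle array of KI3, at 1.99 against -3.23 to -1.60 in the other 5 muscle arrays. A list of 6 fat genes stood at 2.38 and 3.51 in the hearts of KI1 and KI3 and at -4.07 to -0.44 in the other 4 hearts. In muscle the fat list ran from 1.06 to 4.62 in WT and from 2.91 to 5.37 in KI mice, and its part in the muscle levels was not tested. The heart list was at 5.63 in the heart of WT1, against 7.485 to 8.106 in the other hearts. The liver list in the brain of WT1 was at -1.38, against -4.73 or lower in the other brains. The I312R change lies in the protein sequence, so the array does not test the genotype labels.

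The levels of these genes differed between tissues, and the genes did not share 1 order of tissues. Of the 60 differences formed by 10 genes and 6 pairs of tissues, 40 passed an adjusted p of 0.05 (limma on all 24 arrays, Benjamini-Hochberg over 42469 probes), and in 31 of these the call and its direction were the same under all 14 other settings tried. Many probes of the array also differed between tissues, from 43.5% to 79.0% by pair, and the counts of the 10 genes are given beside those shares. Brain was the tissue with the lowest mean for Mcm2, Mcm3, Mcm7, Rrm1, Rrm2 and Tyms. Muscle had the lowest mean for Mcm4, Mcm5, Mcm6 and Pcna and the highest for Mcm2 and Rrm1. With this scaling brain and muscle did not differ beyond the spread in Mcm4, Mcm6, Pcna, Rrm2 or Tyms, the lowest adjusted p being 0.051 for Rrm2. Liver had the highest mean for Mcm7, Rrm2 and Tyms, and heart for Mcm3, Mcm4 and Mcm6. With this scaling heart did not pass against muscle for Mcm3 or against liver for Mcm6, nor did liver against heart for Tyms. Liver also had the highest mean for Mcm5 and Pcna, but neither differed between liver and brain beyond the spread, and for Pcna brain was the higher after quantile normalization or normexp. In whole tissue, fewer cells of a type and less RNA per cell cannot be told apart.

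**Figure D1:**
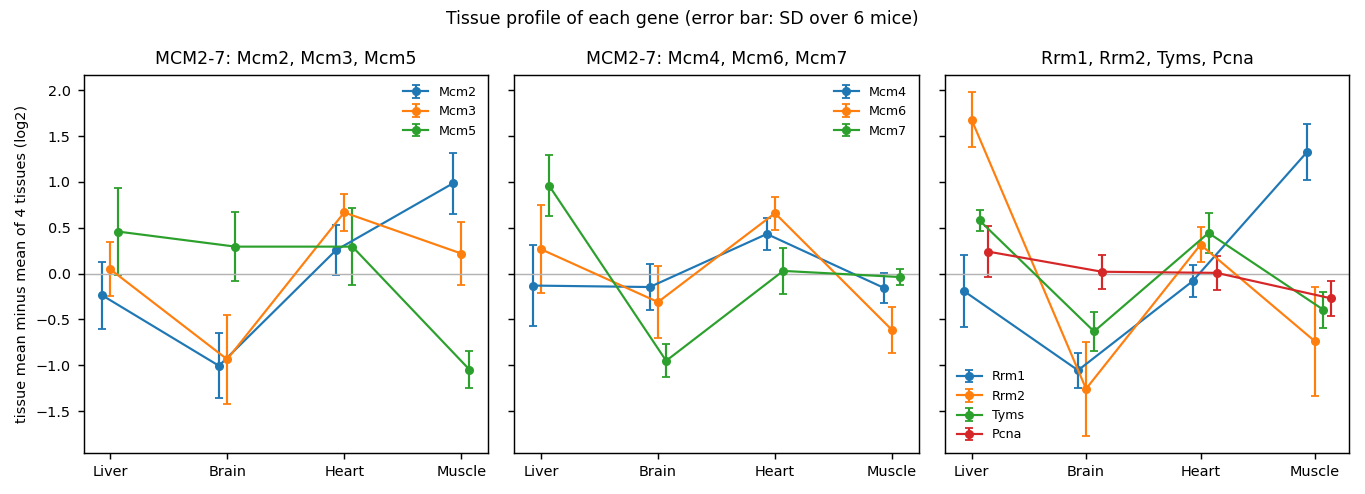
Mean level of each of the 10 genes in each tissue, minus the mean of its 4 tissue means (y axis, log2), with 1 colour per gene, SD over 6 mice as error bars and lines that only join the points of a gene. Mcm2 and Rrm1 peak in muscle, Rrm2, Mcm7 and Tyms in liver, Mcm5 is lowest in muscle, and Pcna is nearly flat.

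Between liver and brain, 7 of the 10 genes were higher in liver and 0 higher in brain, where 79.0% of all probes passed. Between liver and muscle, 6 were higher in liver and 2 in muscle, against 71.1% of probes passing, and between liver and heart 2 were higher in liver and 3 in heart, against 66.7%. The genes higher in heart than in liver, Mcm2, Mcm3 and Mcm4, each lost the call under at least 1 setting, and with the slide as a block 3 of the 5 passed. Between brain and heart, 8 were higher in heart and 0 in brain, where 67.7% of probes passed. Between brain and muscle, 1 was higher in brain and 4 in muscle, against 70.2%, but 3 and 6 passed after either quantile normalization or normexp. Between heart and muscle 5 were higher in heart and 2 in muscle, against 43.5%. RNA of liver and brain was purified with one kit and RNA of heart and muscle with another, so that kit and tissue cannot be told apart in the 4 pairs that cross the kits.

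Rrm2, the small subunit of ribonucleotide reductase whose transcript is tied to S phase, had the largest of the 60 differences. Its level in the 6 livers ran from 1.23 to 2.07 with a median of 1.82, and in the 6 brains from -1.60 to -0.27 with a median of -1.40. In hearts it ran from 0.14 to 0.69 with a median of 0.37, and in muscles from -1.74 to -0.12 with a median of -0.62. The livers lay above every other array, and the hearts lay above all brains and muscles. The mean level in liver exceeded that in brain by 2.94 ± 0.23 (SE), a 7.67-fold difference with an adjusted p of 5.01e-10, and that in muscle by 2.42, or 5.36-fold (adjusted p = 1.39e-08). Liver exceeded heart by 1.36 on the log2 scale (adjusted p = 3.03e-05). Brain and muscle differed by -0.52 with an adjusted p of 0.051, which was 0.046 with the mouse as a block. It was 0.0215 after quantile normalization, 0.0383 after normexp and 0.902 with the slide as a block.

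Rrm1, the large subunit that must join a small subunit to work, had another order. It ran from 2.35 to 3.24 with a median of 2.85 in muscle, from 0.89 to 1.90 with a median of 1.41 in liver, from 1.17 to 1.66 with a median of 1.48 in heart, and from 0.20 to 0.72 with a median of 0.53 in brain. All 6 muscles lay above all other arrays, and all 6 brains lay below them. Muscle exceeded brain by 2.38 ± 0.18 (SE) on the log2 scale, or 5.21-fold (adjusted p = 5.07e-10), liver 2.86-fold (adjusted p = 3.26e-07) and heart 2.66-fold (adjusted p = 2.52e-06). Liver and heart differed by -0.10 (adjusted p = 0.628), and their ranges overlapped. Over the 4 tissue means, Rrm1 and Rrm2 had a correlation of 0.00, which describes 4 points only.

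Rrm2b, the alternative small subunit that supplies deoxyribonucleotides outside S phase, is not among the 10 genes and was looked at after its values were seen. Its level was -4.34 ± 0.25 (SD, n = 6) in liver, -1.78 ± 0.26 in brain, -1.40 ± 0.32 in heart and -1.05 ± 0.34 in muscle. Liver was below brain by 2.56 on the log2 scale and below muscle by 3.29 (adjusted p = 2.69e-12), where Rrm2 was higher in liver in both comparisons. Tk1, the salvage kinase for thymidine, was also looked at after its values were seen, and its level was 7.14 higher in liver than in brain.

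Tyms followed the order of Rrm2, with liver highest and brain lowest. Its level ran from -2.60 to -2.27 with a median of -2.43 in liver, from -2.91 to -2.26 with a median of -2.55 in heart, from -3.64 to -3.14 with a median of -3.38 in muscle and from -3.92 to -3.45 with a median of -3.56 in brain. Liver and heart arrays lay above all muscle and brain arrays. Liver exceeded brain 2.32-fold (difference 1.21 ± 0.13, SE, adjusted p = 4.66e-08) and muscle 1.96-fold (adjusted p = 1.41e-06). Neither liver against heart (0.14, adjusted p = 0.36) nor brain against muscle (-0.24, adjusted p = 0.103) passed with this scaling. Both did after quantile normalization, at 0.38 (adjusted p = 0.0129) and -0.39 (adjusted p = 0.0105). Both also did after normexp, at 0.28 (adjusted p = 0.00392) and -0.19 (adjusted p = 0.0416).

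Among the helicase subunits, Mcm7 was highest in liver, where it ran from 2.67 to 3.43 with a median of 2.93. It ran from 1.70 to 2.38 with a median of 2.08 in heart, from 1.89 to 2.11 with a median of 2.01 in muscle and from 0.88 to 1.41 with a median of 1.05 in brain. The 6 livers were above and the 6 brains below all other arrays. Liver exceeded brain 3.76-fold (1.91 ± 0.16, SE, adjusted p = 9.25e-10) and heart 1.91-fold (adjusted p = 2.83e-05), while heart and muscle differed by 0.07 (adjusted p = 0.762).

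Mcm2 and Mcm5, which sit side by side at the gate of the Mcm ring, ran in opposite directions between muscle and the other tissues. Mcm2 ran from -0.24 to 0.58 with a median of 0.18 in muscle, from -0.99 to -0.29 in heart with a median of -0.45, from -1.51 to -0.59 in liver with a median of -0.90 and from -2.25 to -1.38 in brain with a median of -1.68. Mcm5 ran from -2.03 to -1.50 with a median of -1.77 in muscle, below all 18 arrays of the other tissues. In those its medians were -0.44 in liver, -0.33 in brain and -0.55 in heart, with a joint range from -1.18 to 0.43.

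In numbers, Mcm2 was 3.98-fold higher in muscle than in brain (1.99 ± 0.18, SE, adjusted p = 5.28e-09), 2.33-fold higher than in liver (adjusted p = 4.59e-06) and 1.66-fold higher than in heart (adjusted p = 0.00229). Mcm5 was 2.84-fold lower in muscle than in liver (1.51 ± 0.21, SE, adjusted p = 3.53e-06), 2.54-fold lower than in brain (adjusted p = 1.41e-05) and 2.53-fold lower than in heart (adjusted p = 3.74e-05). Among liver, brain and heart, no difference of Mcm5 passed, the lowest adjusted p being 0.488. The call for Mcm2 between heart and muscle was lost in WT mice alone (adjusted p = 0.104). That between liver and brain (0.77, adjusted p = 0.000566) was lost with the slide as a block (0.46, adjusted p = 0.0917).

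Mcm3, Mcm4 and Mcm6 had their highest means in heart. The next highest tissue did not differ beyond the spread for Mcm3 (heart minus muscle 0.45, adjusted p = 0.0693) or Mcm6 (liver minus heart -0.39, adjusted p = 0.0829). For Mcm4, liver minus heart (-0.56, adjusted p = 0.00541) and heart minus muscle (0.59, adjusted p = 0.00694) passed. Neither did with the slide as a block (adjusted p = 0.0986 and 0.0987). Mcm3 ran from 1.08 to 1.52 there with a median of 1.14, and from -0.86 to 0.55 in brain with a median of -0.50, and brain was lower by 1.60 ± 0.19 (SE, adjusted p = 4.58e-07). Mcm6 ran from 2.48 to 2.96 in heart with a median of 2.68, against 1.01 to 1.77 in muscle with a median of 1.43, without overlap (1.28 ± 0.20, SE, adjusted p = 2.43e-05). Mcm4 spanned less between tissues than the other helicase subunits, with means of 1.94 ± 0.17 (SD, n = 6) in heart, 1.38 ± 0.44 in liver, 1.36 ± 0.25 in brain and 1.35 ± 0.17 in muscle. Liver, brain and muscle did not differ in Mcm4 beyond their spread, with differences of at most 0.02 between them. The heart was above brain in Mcm4 by 0.58 (adjusted p = 0.00437).

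Pcna had the flattest profile, with means of 3.38 ± 0.28 (SD, n = 6) in liver, 3.16 ± 0.18 in brain, 3.14 ± 0.19 in heart and 2.87 ± 0.19 in muscle. Its values in the 24 arrays ran from 2.54 in the muscle of KI3 to 3.83 in the liver of WT1, and the tissues overlapped. With this scaling, liver against muscle was the only pair that passed (0.51 ± 0.15, SE, adjusted p = 0.00566). With the slide as a block that difference was -0.04. That pair did not pass after quantile normalization (0.24, adjusted p = 0.058) or normexp (0.23, adjusted p = 0.059). Liver against brain, brain against heart, brain against muscle and heart against muscle passed under both. Brain minus muscle was 0.75 (adjusted p = 7.23e-06) after quantile normalization and 0.72 (adjusted p = 3.6e-06) after normexp.

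**Figure D2:**
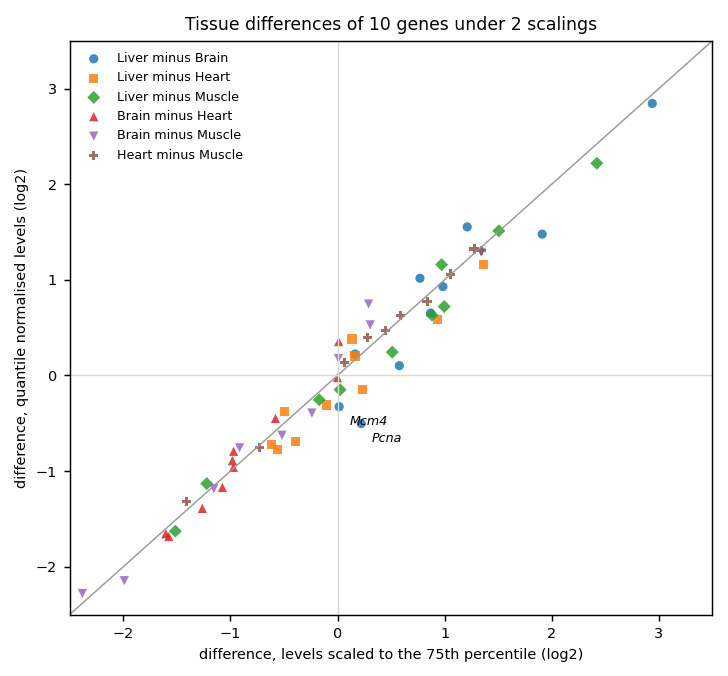
Each point is the difference of 1 of the 10 genes between a pair of tissues (60 points, log2), with levels scaled to the 75th percentile on the x axis and quantile normalized levels on the y axis, symbols for the 6 pairs and a diagonal of equal values. Most points lie near the diagonal, and Mcm4 and Pcna for liver minus brain, named in the plot, lie below 0 on the y axis only.

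The small differences between liver and brain depended on the scaling. The median difference over all probes was 0.35 with the 75th percentile, 0.18 after quantile normalization and 0.09 after normexp correction, so values near it have no settled direction. Under these 3 settings in turn, Pcna was at 0.22 (adjusted p = 0.188), -0.50 (adjusted p = 0.000424) and -0.50 (adjusted p = 0.000217), and Mcm4 at 0.01, -0.33 (adjusted p = 0.0431) and -0.30 (adjusted p = 0.0362). Mcm6 in liver against brain was 0.58 (adjusted p = 0.0112) but 0.10 (adjusted p = 0.64) after quantile normalization. Of the 40 called differences, 37 were called the same way under both quantile normalization and normexp. Between the other pairs the median over all probes was -0.30 for brain minus muscle, -0.27 for brain minus heart, and within 0.07 of 0 for the rest.

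Slides carried several tissues each, which allowed some tissue differences to be taken on 1 slide. On the slide with all 6 livers and 2 brains, the 7 genes called between liver and brain kept their sign, and in 6 the arrays did not overlap. Rrm2 differed by 3.32 there, Mcm7 by 1.95 and Mcm2 by 0.46. On the slide with 4 brains and 4 hearts, all 8 called genes kept their sign without overlap, from -0.63 for Mcm4 to -1.51 for Mcm3. On the slide with 2 hearts and 6 muscles, the 7 called genes kept their sign without overlap, including Rrm1 at -1.53 and Mcm5 at 1.46. Liver and heart, liver and muscle, and brain and muscle shared no slide, so slide and tissue cannot be told apart within a slide for these pairs.

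The comparison of Rap1 KI/KI with WT asked whether the RAP1 that cannot bind telomeres goes with altered levels of these genes. None of the 10 genes passed in a tissue after adjustment, where 0% of all probes passed in liver (35253 tested, lowest adjusted p of any probe 1.00), brain (37846, 0.117), heart (34862, 0.646) or muscle (32396, 0.939). At an unadjusted limma p below 0.05, 750 probes or 2.13% were found in liver, 993 or 2.62% in brain, 2619 or 7.51% in heart and 799 or 2.47% in muscle. Among the 40 differences of the 10 genes, 1 reached it, that of Mcm5 in heart. Differences ran from -0.62 to 0.69 on the log2 scale. With 3 mice against 3, an exact permutation test cannot give a p below 0.1.

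**Figure D3:**
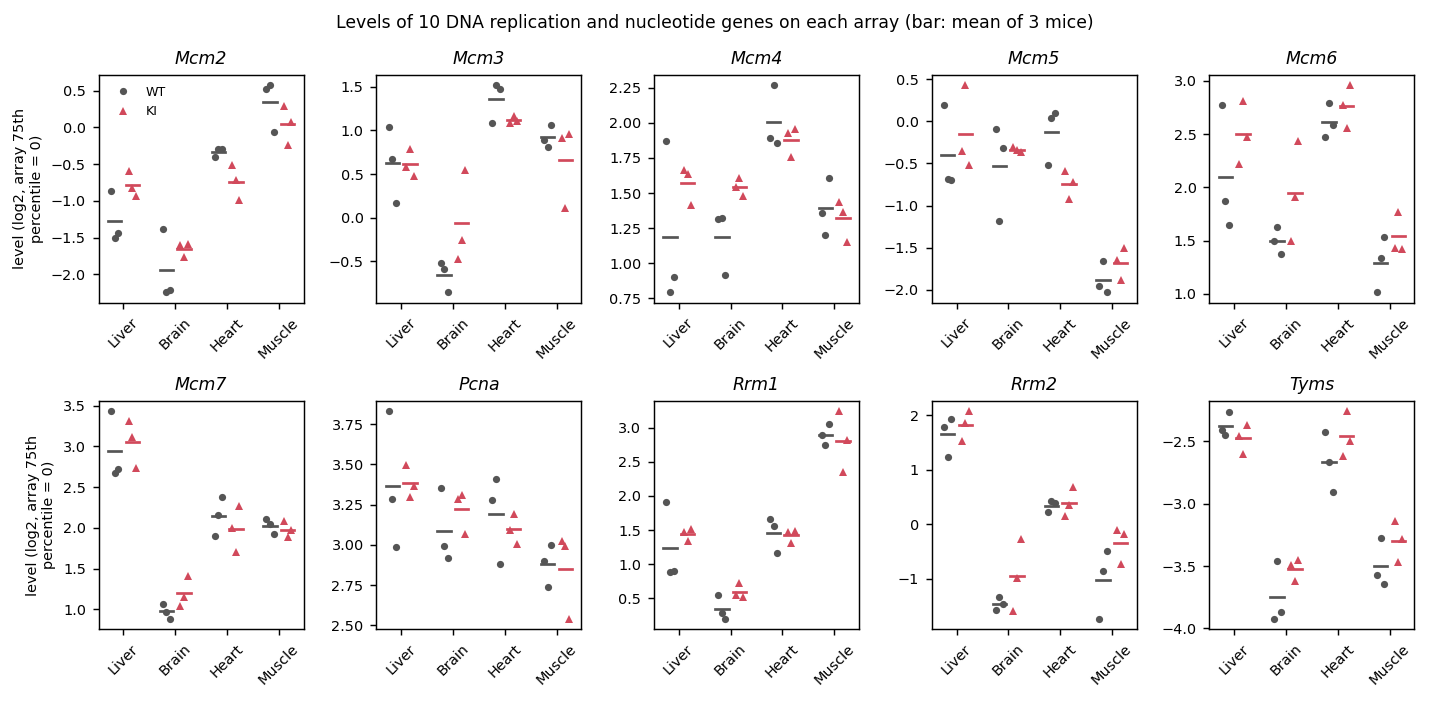
Level of each of the 10 genes in each mouse and tissue (log2 processed signal minus the array's 75th percentile), with circles for WT, triangles for Rap1 KI/KI and bars for the mean of 3 mice. For Rrm1 the muscles lie above and the brains below all other arrays, and for Rrm2 the livers lie above all others. Liver and heart overlap for Rrm1, brain and muscle overlap for Rrm2, and the genotypes overlap in most panels.

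In heart, Mcm5 was -0.52, 0.04 and 0.10 in WT1, WT2 and WT3 and -0.59, -0.93 and -0.73 in KI1, KI2 and KI3. Mcm2 was -0.40, -0.30 and -0.29 in the WT hearts and -0.51, -0.72 and -0.99 in the KI hearts. In both genes all 3 KI hearts lay below all WT hearts, as did 8.68% of all probes tested, while all KI hearts lay above in 6.03% of probes and in 0 of the 10 genes. The difference was -0.62 ± 0.25 (SE) for Mcm5 (below 0.05 in limma before adjustment, adjusted p = 0.646) and -0.41 ± 0.21 for Mcm2 (adjusted p = 0.653). Leaving out each mouse in turn gave -0.82 to -0.51 for Mcm5 and -0.53 to -0.28 for Mcm2. On the slide of 2 against 2 hearts Mcm5 differed by -0.52 and Mcm2 by -0.27, and on the slide of 1 against 1 by -0.82 and -0.70. The fat list was raised in the hearts of KI1 and KI3, and stood at -0.47 in KI2. The heart list was lowest in the heart of WT1. The part of these lists in the differences was not tested. The other 8 genes ran from -0.24 to 0.21, and the median over the 10 was -0.11 against -0.08 over all named genes tested.

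In brain the difference was above 0 for all 10 genes, from 0.13 for Pcna to 0.59 for Mcm3, with a median of 0.27 against 0.01 over all named genes. None of the 10 reached an unadjusted limma p of 0.05. Mcm3 was -0.53, -0.59 and -0.86 in the WT brains and -0.48, -0.26 and 0.55 in the KI brains, a difference of 0.59 ± 0.30 (SE, limma adjusted p = 1). Mcm4 was 1.31, 1.32 and 0.92 in the WT brains and 1.54, 1.61 and 1.48 in the KI brains, a difference of 0.36 ± 0.19. All KI brains lay above all WT brains in these 2 of the 10 genes and in 4.00% of all probes, and below in 0 of the 10 and in 3.73%. Rrm2 was -1.58, -1.33 and -1.47 in WT and -1.60, -0.997 and -0.27 in KI, so that the highest value was that of KI3 and the lowest that of KI1.

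The brain of KI3 had the highest value of the 6 brains in 5 of the 10 genes, and the brain of WT3 the lowest in 6. Without KI3 the difference was above 0 in all 10 genes and the median was 0.21, and without WT2 it was above 0 in 9, with Mcm5 at -0.13. On the slide with 2 brains of each genotype, all from mice of 2 months, all 10 differences were above 0, from 0.13 to 0.87. On the slide with 1 brain of each genotype, both from mice of 5 months, 4 were above and 5 below 0, from -0.21 to 0.43, so the direction in brain rests on the 2-month pairs. A list of 10 proliferation genes had a mean level of -2.62 in the brain of KI3 and of -4.45 to -3.74 in the other 5, and a list of macrophage genes 1.57 against -0.18 to 0.35. The mean of 8 neuroblast genes was -0.13 in KI2 and -0.20 in KI3 and -0.99 to -0.64 in the other brains, but its genes did not move together. Eomes, named after its values were seen, differed by 2.45 between KI and WT brains, while Dcx, Dlx1, Dlx2 and Tubb3 differed by -0.24, -0.28, -0.19 and -0.41. What these lists contribute to the differences was not tested.

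In liver 8 of the 10 differences were above 0, with a median of 0.19 against 0.03 over all named genes, and the largest was that of Mcm2. Mcm2 was -0.87, -1.51 and -1.43 in the WT livers and -0.59, -0.82 and -0.94 in the KI livers, a difference of 0.49 ± 0.24 (SE, limma adjusted p = 1.00), with WT1 among the KI values. The liver of WT1 had the highest value of the 6 livers in 5 of the 10 genes, and WT2 and WT3 had the lowest in 5 and 4. All KI livers lay above all WT livers in 0 of the 10 genes and below them in 0, against 2.77% and 3.07% of all probes. Without WT1 the median over the 10 genes was 0.45, and the leave-one-out range was 0.03 to 0.45.

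In muscle the largest difference was that of Rrm2, at -1.74, -0.87 and -0.50 in the WT and -0.12, -0.73 and -0.19 in the KI muscles. It came to 0.69 ± 0.36 (SE, limma adjusted p = 0.939), and to 0.34 without WT1. The genotypes overlapped in Rrm2, and all KI muscles lay above all WT muscles in 0 of the 10 genes and below them in 0, against 2.36% and 4.08% of all probes. The other 9 genes ran from -0.30 for Mcm2 to 0.25 for Mcm6, with 4 of the 10 above 0 and a median of -0.04 against -0.07 over all named genes. Lists of other cells moved with genotype in muscle. A list of 6 erythroid genes had mean levels of 0.18, -0.59 and -0.54 in KI1, KI2 and KI3 and of -1.17 to -0.97 in the WT muscles, without overlap. A list of 7 neutrophil genes was at 2.42, -3.11 and -0.28 in the KI and at -3.90 to -2.09 in the WT muscles, and the brain list was raised in KI3. The part of these lists in the difference of Rrm2 was not tested.

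**Figure D4:**
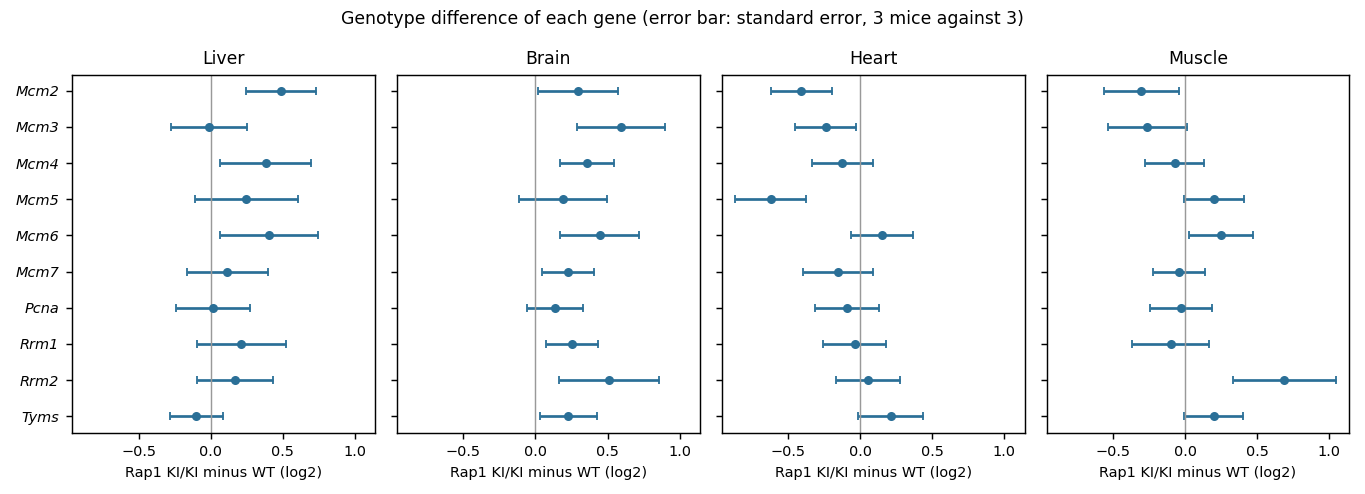
Difference of Rap1 KI/KI minus WT for each of the 10 genes (y axis) in each tissue (panels), on the log2 scale with standard errors as bars and 3 mice of each genotype. All 10 brain values are above 0, heart has 7 below 0, and no difference passed after adjustment.

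Whether the genotype difference itself varied by tissue was tested with an interaction over the 24 arrays. Mcm2 gave the lowest p of the 10 genes (F = 3.13, below 0.05 before adjustment, adjusted p = 1), with differences of 0.49 in liver, 0.30 in brain, -0.41 in heart and -0.30 in muscle. The other 9 genes were above 0.05 before adjustment. Of all 42469 probes, 0% passed after adjustment and 2.93% were below 0.05 before it.

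Age was compared as 5 against 2 months, with 1 mouse of each genotype at 5 months, in a fit with genotype. Of the 10 genes, 0 passed in any tissue, where 1 probe or 0.00284% passed in liver and 0% in brain, heart and muscle. Mcm7 in liver was higher at 5 months by 0.56 ± 0.21 (SE, limma adjusted p = 0.267), the only one of the 10 below 0.05 before adjustment in liver, where 17.2% of probes were. Its values were 3.43 and 3.32 in WT1 and KI1 and 2.67 to 3.11 in the 4 younger mice. Liver differences were above 0 in 8 of the 10 genes with a median of 0.36, against 0.19 over all named genes, and the median was 0.04 without WT1 and 0.72 without KI1. None of the 10 was below 0.05 before adjustment in brain, heart or muscle, where 4.95%, 7.02% and 5.92% of probes were, and in brain age and slide cannot be told apart.

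Other genes of the same pathways were taken from lists of origin licensing, initiation, fork and nucleotide genes that exclude the 10. Between liver and brain, 18 of 26 fork genes tested were higher in liver and 3 lower, as were 16 and 6 of 23 nucleotide genes, 9 and 2 of 15 initiation genes, and 4 and 2 of 8 licensing genes. Over all 18399 named genes tested, 8657 were higher in liver and 6503 lower, and 79.0% of probes passed. The median differences of these lists were 1.11, 1.05, 0.81 and 0.62, against 0.35 over all named genes. Paics, an enzyme of purine synthesis, had means of 5.46 in liver and 2.64 in brain, and Mthfd1, which makes folate intermediates, of 5.97 and 2.43. Gins4, a subunit of the active helicase, had means of 2.53 and 0.61. Other genes had the higher mean in brain, with Orc6 at 1.98 in liver and 2.51 in brain, Pold3 at 1.58 and 2.12 and Tipin at 1.77 and 1.83. Rpa1, the large subunit of the single-strand binding protein, was at 3.17 in liver, 3.70 in brain, 4.00 in heart and 4.88 in muscle, and Cdt1, which loads the Mcm ring, at 1.28, -0.36, 0.04 and -1.07. Between liver and muscle, 16 fork genes were higher in liver and 7 lower, and 14 and 7 of the nucleotide genes, against 6991 and 6903 of all named genes.

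Inhibitors of cyclin-dependent kinases, which hold back entry into S phase, were lower in liver than in heart and muscle and divided between liver and brain. Between liver and muscle, 0 of 7 tested were higher in liver and 7 lower, with a median of -2.16, where 71.1% of probes passed. Between liver and heart the counts were also 0 and 7, with a median of -1.74, where 66.7% passed. Between liver and brain 2 were higher in liver and 3 lower, with a median of -0.54, where 79.0% passed. Cdkn1c, encoding p57, had means of -0.27 in liver, 1.10 in brain, 3.38 in heart and 3.79 in muscle, and Cdkn1b, encoding p27, of 2.77, 2.44, 3.54 and 3.78. Of the proliferation genes, 9 of 9 tested were higher in liver than in brain and 8 of 9 higher in liver than in muscle, with medians of 1.31 and 1.49, against 79.0% and 71.1% of probes passing in either direction. Liver and heart did not show 1 direction in the mean level of this list. It was -2.904 to -2.624 in WT livers and -2.473 to -1.996 in WT hearts. In KI mice it was -2.365 to -2.025 in livers and -2.559 to -2.436 in hearts. Mki67, a marker of cycling cells, had means of -0.43 in liver, -1.93 in brain, 0.77 in heart and -0.78 in muscle.

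None of these lists held a gene that passed between genotypes after adjustment. Before it, 4 of 9 proliferation genes in liver had higher levels in KI at a limma p under 0.05, with a list median of 0.69, where 2.13% of probes were under 0.05 in either direction. In muscle 4 of 7 did, with a median of 0.56, against 2.47% of probes, and in brain 1 of 9, with a median of 0.41, against 2.62%. Cdk1, named after its values were seen, is the brain gene and also 1 of the 4 in muscle. Its mean levels were -5.78 in brain and -5.53 in muscle, and it was well above background on 18 of 24 arrays. Of the 10 listed genes, 5 to 6 were well above background in WT and 7 to 8 in KI muscles. A gene low in WT can thus enter the test through the KI arrays alone, and such a count is a description only. In heart 0 of 9 did, with a median of 0.00. The fork genes had 3 of 26 below 0.05 with lower levels in KI hearts and a median of -0.17, and the nucleotide genes 1 of 23 and -0.19, against 7.51% of probes and a median of -0.08 over all named genes.

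The 10 genes were also compared for how their levels moved together from mouse to mouse, after the mean of each tissue and genotype was removed. Over the 24 arrays the 45 pairs had correlations from -0.51 to 0.77 with a median of 0.35, 36 of them above 0. These points share mice, slides and array scaling, so the values are descriptions. Mcm4 with Pcna had 0.77, Mcm4 with Rrm1 0.73, Pcna with Rrm1 0.67 and Mcm4 with Mcm6 0.63. Tyms went with the others least, at -0.51 with Mcm5, and its correlation with the mean of the other 9 was -0.14, against 0.71 for Mcm4, 0.70 for Rrm1 and 0.26 for Rrm2. The median over pairs was 0.65 in liver, 0.19 in brain, 0.21 in heart and 0.31 in muscle. The livers of WT1, WT2 and WT3 had means over the 10 genes of 1.36, 0.68 and 0.69, and without the liver array of WT1 the median over all pairs was 0.20.

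**Figure D5:**
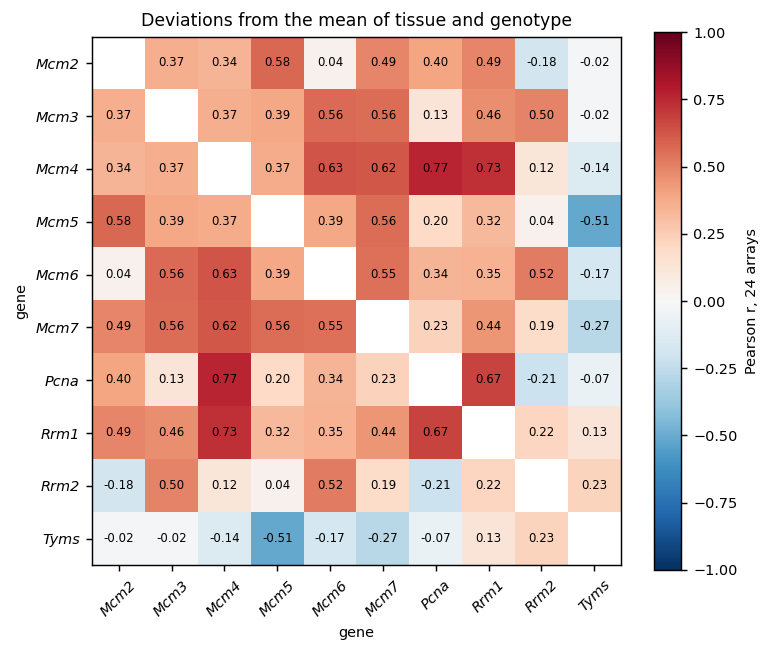
Pearson correlation of each pair of the 10 genes (rows and columns, colour and printed value) over 24 arrays, after subtraction of the mean of each tissue and genotype. Mcm4 with Pcna and Mcm4 with Rrm1 have the highest values, and Tyms has values near or below 0 with most genes.

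By the likeness of this shared movement, the named genes closest to the mean of the 10 were Wdpcp (correlation 0.86), Atp11a (0.78), Evc2 (0.78), Ybx1 (0.77) and Tipin (0.77), among 12755 genes and over 24 arrays. Tipin encodes a fork protection factor and belongs to the initiation list. The median correlation over 24557 probes was 0.07.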

How the data were processed

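RNA was purified by the authors with one kit for liver and brain and another, for fibrous tissue, for heart and muscle, labelled with Cy3 and hybridised to 1-colour Agilent arrays. Intensity values were deposited by the authors as processed signals of Feature Extraction 12.0.3.1, per the file headers. The series table, a score per probe deposited by the authors, matched the z-score of the log10 processed signal within an array to within 0.005 and was used as an alternative. Genes were named through accessions in RefSeq (28331 of 55681 probes, 21368 genes).

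Control and outlier-flagged spots were left out, spots of a probe were averaged, and log2 signals were scaled to the 75th percentile of the array. Tests within a tissue took the probes that stood well above background on 3 or more of its 6 arrays, and tests over all tissues took those that did so in any tissue. All used limma 3.58.1 in R 4.3.3 with Benjamini-Hochberg adjustment. Genotype was fitted within each tissue, age in a fit with genotype, and tissue contrasts and the interaction on all 24 arrays. The number of arrays limits the precision. The fitting code was tested on simulated data.

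The mice of a number are the same animals in every tissue, and 36 pairs of arrays from 1 mouse had correlations of their deviations from the group means from -0.32 to 0.38, with a median of 0.09, so the tissue tests were also run with the mouse as a block. The alternatives were quantile normalization, normexp with an offset of 50, the deposited scores, other filters, age, slide or mouse as a term, a robust variance prior, WT alone and leaving out each mouse. The genes and lists were chosen with earlier results of these data known. Genes named were the 10 members, the 4 genes of each other list with the highest mean level and the genes most like the members; others are said to have been chosen after their values were seen.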

Additional observations from a re-analysis of the deposited data

How the results depend on the processing

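No call between genotypes, ages or in the interaction was gained or lost under any alternative, with 0 of the 10 genes passing each time, and 31 of 40 tissue calls held under all 14 alternatives. The mouse as a replicate block gave the same median in brain, 0.27, and changed 1 tissue call, that of Rrm2 between brain and muscle (adjusted p = 0.046). The mouse number as a replicate block within a tissue, added after seeing the data, changed none.

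Between liver and heart the median over the 10 genes was -0.23 after both quantile normalization and normexp and -0.25 in WT mice alone. In the deposited scores it was -0.029, in units of the z-score of the log10 signal, so its size cannot be set beside the log2 differences. With the slide as a block 3 genes passed. Without the arrays of the muscle of KI3 and the hearts of KI1 and KI3, an alternative chosen after seeing the data, 3 passed. Leaving out 1 mouse gave 3 to 6 genes and medians of -0.15 to 0.08. Between liver and muscle the median was 0.44 after quantile normalization and 0.41 after normexp, between brain and heart -1.12 in WT mice alone, and between heart and muscle 0.40 after normexp. Between brain and muscle 9 genes passed after quantile normalization and 9 after normexp, 3 higher in brain and 6 in muscle each time. Between liver and brain, Mcm4 was -0.33 and -0.30 and Pcna -0.50 and -0.50 after quantile normalization and normexp, and between liver and muscle Pcna was -0.035 with the slide as a block. The median genotype difference in heart was 0.018 after quantile normalization, -0.005 after normexp and -0.18 to 0.007 with a mouse left out. With a mouse left out, the median age difference ran from 0.039 to 0.72 in liver, -0.05 to 0.20 in brain, -0.18 to 0.01 in heart and -0.046 to 0.25 in muscle, and the median correlation between genes from 0.21 to 0.39. The cause of these changes was not tested. Each gene has 1 probe, so the alternatives on the choice of probe give the same values and were not run.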

Other observations

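Mki67, a marker of cycling cells and the proliferation gene with the highest mean level, stood apart by genotype where the replication genes did not. In liver it was at -0.88, -0.68 and -0.89 in WT1, WT2 and WT3 and at -0.39, 0.13 and 0.14 in KI1, KI2 and KI3, a difference of 0.77 ± 0.22 (SE, below 0.05 in limma before adjustment, adjusted p = 1.00). In muscle it was at -1.52, -1.12 and -0.96 in the WT and -0.27, -0.33 and -0.48 in the KI mice, a difference of 0.84 ± 0.22 (below 0.05 before adjustment, adjusted p = 0.939). All KI values lay above all WT values in both tissues, as they did in 2.77% of all probes in liver and 2.36% in muscle, and neither difference passed the adjustment. In muscle the erythroid list was also higher in every KI than in every WT mouse, at -0.59 to 0.18 against -1.17 to -0.97, and the neutrophil list was at 2.42 in KI1 and -0.28 in KI3 against -3.90 to -2.09 in WT, and their part in the difference of Mki67 was not tested. In brain it was at -2.81 and -3.14 in the mice of 5 months and between -1.82 and -0.36 in those of 2 months, a difference of -1.58 ± 0.46 (below 0.05 before adjustment, adjusted p = 0.746), where age and slide cannot be told apart. Of the 9 proliferation genes tested in brain, 8 were lower at 5 months, 5 of them at a limma p under 0.05 before adjustment, where 4.95% of all probes were in either direction. The list median was -1.20, while the median of the 10 replication genes was 0.02.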
